A study of Mus musculus with 28 samples.

Results

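The 8 genes described here encode cytokines and receptors of the IL-6 and IL-10 systems: the ligands Il6, Osm, Lif and Il10, and the receptor chains Il6ra, Il6st, Il10ra and Il10rb. They were taken by symbol from a table of 40021 genes, and each symbol was found on 1 line. Of the 8, 7 reached 1 RPKM (read number scaled to transcript length and to the mapped reads of the library) in at least 5 retinas and were tested among 13164 such genes, while Lif did not. A gene was called where its Benjamini-Hochberg adjusted p in limma was at most 0.05 and its fold change at least 2, both on log2(RPKM + 1).

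The receptors of IL-6, oncostatin M and LIF share gp130, the product of Il6st, which signals through JAK kinases to STAT3. IL-10 binds IL-10RA, which pairs with IL-10RB and also acts through STAT3, but in macrophages and microglia this signal restrains the transcription of inflammatory genes. IL-6 is known as an early product of endotoxin-stimulated myeloid cells and is found in the eye during uveitis, and IL-10 is known as the later brake on the same response.

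The study followed retinal microglia through endotoxin-induced uveitis (EIU), an acute and self-limiting ocular inflammation, in 28 single retinas. All mice were heterozygous male Cx3cr1CreER:R26-tdTomato animals on C57BL/6, in which tamoxifen given to the eye for 3 days at 4 to 5 weeks of age marks cells then expressing Cx3cr1, and 4 weeks passed before any injection. Naïve retinas (n = 10) were not injected, and the others were taken at 4 h (n = 6), 18 h (n = 5) or 2 weeks (n = 7) after 10 ng of lipopolysaccharide (LPS) was injected into the vitreous. From each retina 600 live tdTomato-high cells were sorted and their mRNA was amplified and sequenced. No vehicle-injected retinas are among the groups, so the effects of the injection and of LPS cannot be told apart. The samples came from 2 experiments, with 6 and 4 naïve, 3 and 3 retinas at 4 h, 4 and 1 at 18 h, and 4 and 3 at 2 weeks. Left and right eyes are both present and the labels do not tie eyes to mice, so eyes of 1 mouse may have entered as separate samples and the p-values may then be too small.

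Each retina had 7510000 to 19700000 alignments. All 12 microglial markers fixed for the check had a median above 1 RPKM in every group, although their summed level was 6756 to 14912 RPKM in naïve retinas and 2336 to 8749 RPKM at 4 h. In each group 11 of 12 neutrophil markers had a median under 1 RPKM, and Ly6g did not pass 0.189 RPKM in any retina. S100a8, S100a9, Camp and Mmp8 were listed at 0 in every naïve retina and reached 9.24, 5.15, 3.28 and 2.30 RPKM at 18 h. At 18 h 7 of the 12 were under 1 RPKM in every retina, against 11 in naïve retinas. The sum of 8 monocyte markers was 144 to 320 RPKM at 18 h against 9.86 to 57.0 RPKM in naïve retinas. Ms4a4c alone made 134 to 315 RPKM of the 18 h sum, while Ccr2 stayed at 1.15 RPKM or less. Plac8 had a median of 6.63 RPKM at 18 h against 0.108 RPKM in naïve retinas, and Ly6c2 and Chil3 reached 4.68 and 1.33 RPKM. Under 1 RPKM in every retina were 3 of the 8 at 18 h and 6 in naïve retinas. The sum of 12 lymphocyte markers was 44.0 to 138 RPKM at 18 h and 20.2 to 81.3 RPKM in naïve retinas, with 10 of 12 markers at a median under 1 RPKM at 18 h. Nkg7, a granule gene of natural killer and cytotoxic T cells, was listed at 0 in every naïve and 4 h retina and had 5.77 to 86.4 RPKM at 18 h (median 12.1 RPKM), and Klrb1c, a natural killer cell receptor, reached 18.4 RPKM at 18 h and was listed at 0 in every naïve retina. The part of these cell types in the 18 h results was not tested. The monocyte sum at 4 h was 171 and 71.8 RPKM in replicates 2 and 3, both of experiment 1, above every naïve retina, and 6.61 to 16.5 RPKM in the other 4 retinas. These replicates also had the lowest sums of microglial markers at 4 h (2336 and 3582 RPKM) and of rod photoreceptor markers (372 and 736 RPKM). Counts of genes called at 4 h, and the 4 h changes of some members, are given with and without them. In 4 retinas (naïve replicates 3 and 4, 18 h replicate 4 and 2-week replicate 1) 6552 to 7088 genes reached 1 RPKM, where the other retinas had 8137 or more, and counts of called genes are given with and without them.

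At 4 h, 5 of the 7 tested members were called, with Il6, Il10 and Il10ra higher and Il6ra and Il6st lower than in naïve microglia, while 8.08% of all tested genes were called (3.68% higher and 4.39% lower). These were 485 higher and 578 lower genes, and 410 and 1002 once summed RPKM was made equal over retinas. Il10, at most 0.604 RPKM in naïve retinas, passed the filter only through injected retinas, so its place among the called members was favoured by the filter. At 18 h only Il6ra was called, and it was lower, where 4.69% of all tested genes were called (374 or 2.84% higher and 244 or 1.85% lower, and 226 and 471 with equal summed RPKM). At 2 weeks no member was called by limma, and 0.0076% of all tested genes, a single gene, was. Osm at 2 weeks was the only member with an unadjusted p under 0.05 there (p = 0.019 in limma, higher than naïve). Without the 4 retinas with few genes, 4 members were called at 4 h (Il6st was the one lost), 1 was at 18 h and 0 were at 2 weeks. Without 4 h replicates 2 and 3, 4 members were called at 4 h and all were higher, with Osm gained (2.60, limma adjusted p = 0.0038) and Il6ra and Il6st no longer called (-0.98 and -1.12, adjusted p = 0.13 and 0.090). That choice was made after the values were seen. These retinas hold the lowest Osm, Il10 and Il10ra values at 4 h, so larger rises of these genes were built in.

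The promoters come first, and 4 of the 8 members (Il6, Lif, Il6ra and Il6st) had an entry in the RefSeq table used (GRCm38.p6). The 250 bases before the RefSeq start of Il6 (chr5:30012864-30013113, plus strand), Il6ra (chr3:89913197-89913446, minus strand) and Il6st (chr13:112463820-112464069, plus strand) are shown because these 3 members were called at 4 h, the first higher and the other two lower. Capitals mark matches on either strand to the NF-kappa B consensus, to the AP-1 site TGANTCA, to the cyclic AMP response element core TGACG, to the C/EBP site TTNNGCAA or to the STAT site TTCNNNGAA.
Il6: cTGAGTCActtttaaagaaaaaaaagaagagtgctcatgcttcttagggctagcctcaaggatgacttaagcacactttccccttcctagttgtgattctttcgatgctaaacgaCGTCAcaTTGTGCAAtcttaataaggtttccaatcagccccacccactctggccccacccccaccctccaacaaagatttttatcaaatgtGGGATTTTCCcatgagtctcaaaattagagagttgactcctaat
Il6ra: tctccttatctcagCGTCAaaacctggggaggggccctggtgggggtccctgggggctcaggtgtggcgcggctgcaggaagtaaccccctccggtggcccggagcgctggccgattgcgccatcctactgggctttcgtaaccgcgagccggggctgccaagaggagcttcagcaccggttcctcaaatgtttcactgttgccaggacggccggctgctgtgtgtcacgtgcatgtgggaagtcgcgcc
Il6st: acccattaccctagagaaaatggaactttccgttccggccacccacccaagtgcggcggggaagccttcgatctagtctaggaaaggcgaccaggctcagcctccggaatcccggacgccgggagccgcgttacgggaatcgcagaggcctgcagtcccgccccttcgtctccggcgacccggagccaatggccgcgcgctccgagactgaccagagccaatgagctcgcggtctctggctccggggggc
The Il6 window held an NF-kappa B match, GGGATTTTCC, 44 to 35 bases before the start. It also held an AP-1 match at 249 to 243 bases, a match to the cyclic AMP element core at 135 to 131 bases and a C/EBP match at 128 to 121 bases, and none of these 4 overlapped another. The Il6ra window had a single match, to the cyclic AMP element core, and the Il6st window had none. Among 32851 promoter windows of the same length, 7.25% held an NF-kappa B match, 6.75% an AP-1 match, 17.8% the cyclic AMP element core, 9.56% a C/EBP match and 7.02% the STAT site. The Lif window held an NF-kappa B match and an AP-1 match. No STAT match stood in the 4 windows, and a match is a description of letters and not of binding.

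Il6 (ENSMUSG00000025746, GRCm38 chr5:30013114-30019981, plus strand), which encodes the pyrogenic and acute-phase cytokine IL-6, was detected in naïve microglia and higher at 4 h. Its level in naïve retinas ran from 0.0484 to 15.2 RPKM with a median of 7.66 RPKM. At 4 h the 6 retinas had 7.97, 21.7, 32.9, 58.1, 60.4 and 123 RPKM. At 18 h the values were 5.02, 7.60, 6.56, 15.1 and 1.79 RPKM, and at 2 weeks they ran from 0.293 to 9.33 RPKM with a median of 3.42 RPKM.

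In 5 of 6 retinas at 4 h Il6 lay above every naïve retina, and the sixth (replicate 3) lay inside the naïve range. All 18 h and 2-week retinas lay below the highest naïve retina. The log2 fold change of Il6 at 4 h was 2.48 (SE 0.56, limma adjusted p = 0.0029), a 5.60-fold rise, and it was 0.05 (SE 0.59, adjusted p = 0.98) at 18 h and -0.76 (SE 0.53, adjusted p = 1) at 2 weeks. From 4 h to 18 h Il6 fell by 2.43 on the log2 scale (SE 0.65, limma adjusted p = 0.021). Within experiment 1 the 4 h change was 2.36 (limma adjusted p = 0.16) and within experiment 2 it was 2.40 (adjusted p = 0.0089). The fall from 4 h to 18 h was not called without 4 h replicate 5 (-2.09, limma adjusted p = 0.072), 18 h replicate 1 (-2.38, adjusted p = 0.055) or 18 h replicate 5 (-2.10, adjusted p = 0.085), nor within experiment 1 (-1.57, adjusted p = 0.64). In the order of medians Il6 stood highest at 4 h, then in naïve retinas, at 18 h and at 2 weeks, and the groups after the first did not differ beyond their spread.

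Osm (ENSMUSG00000058755, GRCm38 chr11:4236420-4241026, plus strand), the gene of oncostatin M, a product of activated macrophages, was variable in every group. Of the naïve retinas 3 were listed at 0, the median was 0.599 RPKM and the highest, replicate 1, was 6.85 RPKM. The 4 h retinas had 13.03, 0.0382 and 0 RPKM in experiment 1 and 5.75, 21.4 and 6.32 RPKM in experiment 2. The 18 h values were 2.44, 3.20, 3.91, 10.4 and 0.701 RPKM, and the 2-week values ran from 0.509 to 19.0 RPKM with a median of 3.60 RPKM.

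Every injected group overlapped the naïve range of Osm, and 2 of 6 retinas at 4 h, 1 of 5 at 18 h and 1 of 7 at 2 weeks lay above it. Its log2 fold change was 1.45 at 4 h (95% interval 0.20 to 2.69, limma adjusted p = 0.16), 1.20 at 18 h (-0.12 to 2.52, adjusted p = 0.35) and 1.45 at 2 weeks (0.26 to 2.64, adjusted p = 1). None of these passed, and the intervals do not show that Osm stayed level. Within experiment 2 the 4 h change was 2.22 and called (limma adjusted p = 0.018), and within experiment 1 it was 0.58 (adjusted p = 0.85). The difference between the experiments was 1.64 (SE 1.14, limma adjusted p = 1).

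Lif (ENSMUSG00000034394, GRCm38 chr11:4257557-4272514, plus strand), which encodes leukaemia inhibitory factor, was at or near 0 in all but 2 retinas. It was listed at 0 in 8 of 10 naïve retinas, and the other two, at 0.0258 and 0.0176 RPKM, correspond to about 1 read each. At 4 h the 3 retinas of experiment 1 were listed at 0 and those of experiment 2 had 0.542, 3.73 and 0.0258 RPKM. All 5 retinas at 18 h and all 7 at 2 weeks were listed at 0. Lif thus passed 1 RPKM in 1 retina, 4 h replicate 5, where 3.73 RPKM corresponds to about 204 reads at the gene's longest coding transcript. In a limma fit without the filter on low values its 4 h log2 fold change was 0.48 (adjusted p = 0.38).

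Il10 (ENSMUSG00000016529, GRCm38 chr1:131019845-131024974, plus strand), the gene of the anti-inflammatory cytokine IL-10, was listed at 0 in nearly every naïve retina and reached its highest levels in 2 retinas at 4 h. It was listed at 0 in 9 naïve retinas and at 0.604 RPKM, about 10.6 reads, in replicate 8. Il10 therefore passed the filter only through injected retinas. At 4 h the experiment 1 retinas had 0.837, 0 and 0 RPKM. The experiment 2 retinas at 4 h had 3.42, 148 and 88.7 RPKM.

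All 3 retinas of experiment 2 at 4 h therefore lay above the naïve range of Il10, and 1 of 3 in experiment 1 did. At 18 h the values were 1.65, 0.271, 2.45, 0 and 1.08 RPKM, and at 2 weeks 4 of 7 retinas were listed at 0 and the highest were 3.26 and 6.71 RPKM. The number of retinas above every naïve retina was 4 of 6 at 4 h, 3 of 5 at 18 h and 2 of 7 at 2 weeks.

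The log2 fold change of Il10 at 4 h was 2.72 (SE 0.77, limma adjusted p = 0.020), and its size depended on the value added before the logarithm, with 4.50 for 0.1 RPKM and 1.30 for 10 RPKM. The call was lost without 4 h replicate 5 (1.83, limma adjusted p = 0.10) or replicate 6 (1.98, adjusted p = 0.094). Within experiment 1 the change was 0.29 (limma adjusted p = 0.85) and within experiment 2 it was 5.11 (adjusted p = 0.0080). The difference of the 4 h change between experiments was 4.82 (SE 1.10), with an unadjusted p of 0.00016 and an adjusted p of 0.090 in limma, so it was not called, and 0.0988% of all tested genes were. It was called without 4 h replicate 4 (6.39, limma adjusted p = 0.00037). At 18 h the log2 fold change was 0.85 (SE 0.81, limma adjusted p = 0.65) and at 2 weeks 0.70 (SE 0.73, adjusted p = 1), and the fall of 1.87 from 4 h to 18 h did not pass (SE 0.90, adjusted p = 0.29). The summed perivascular macrophage markers of the 4 h retinas were 44.4, 209 and 50.8 RPKM in experiment 1 and 126, 355 and 136 RPKM in experiment 2, where naïve retinas had 12.2 to 638 RPKM, and their part in the Il10 result was not tested. Pf4 was the largest part of this sum, with a 4 h median of 99.5 RPKM against 18.3 RPKM for Ms4a7, 6.91 RPKM for Mrc1 and less for the rest. Both 4 h retinas with Il10 at 0 were replicates 2 and 3, those with the highest monocyte sums and with Osm at 0.0382 and 0 RPKM. Leaving them out was chosen after the values were seen and removes the lowest Il10 values at 4 h, so larger changes were built in. Without them the 4 h change of Il10 was 4.11 (SE 0.74, limma adjusted p = 0.00035). The fall from 4 h to 18 h was then -3.26 (limma adjusted p = 0.017). Neither value is support for the rise or the fall. The difference between experiments, with 1 retina of experiment 1 left at 4 h, was 4.23.

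**Figure D1:**
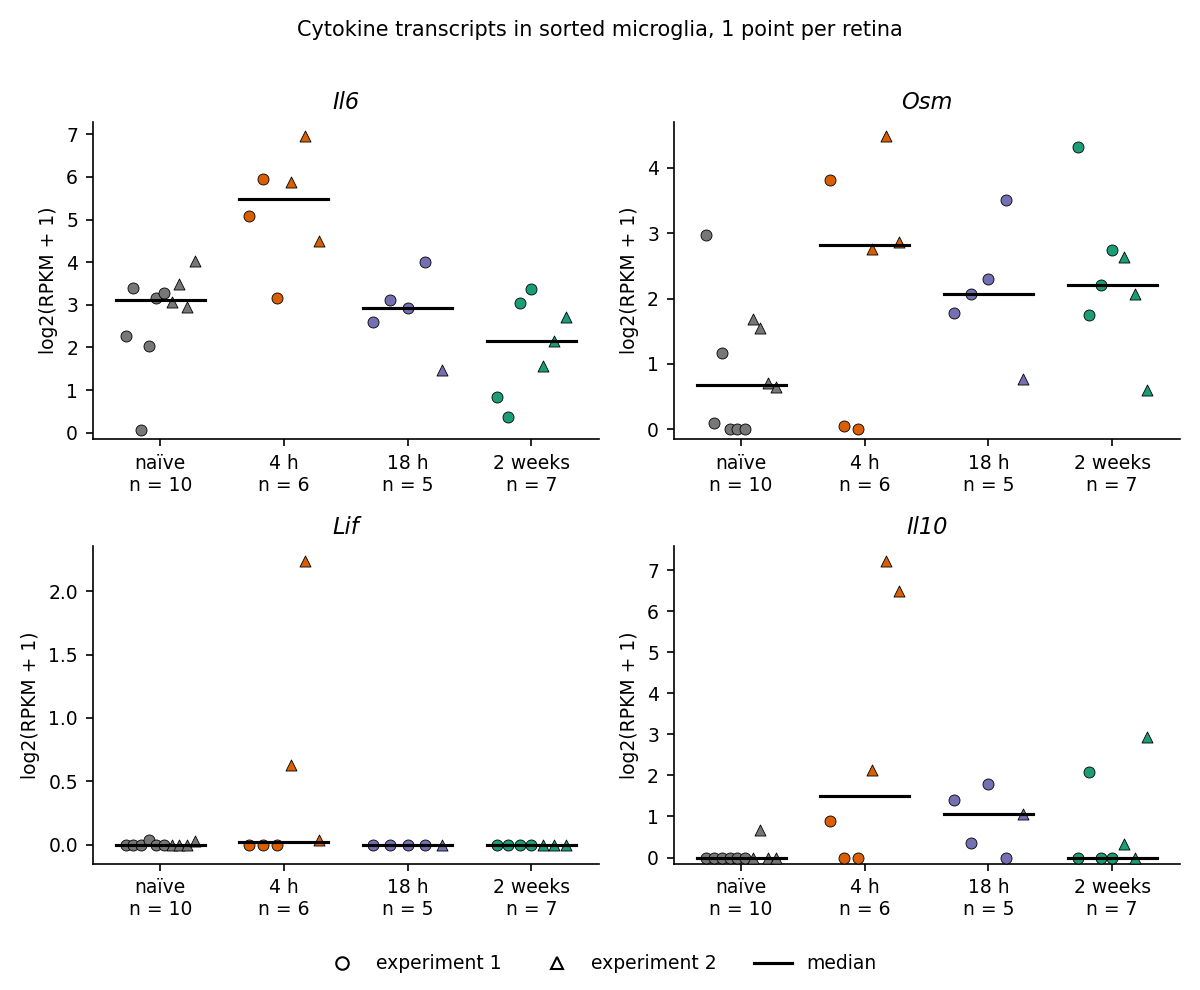
Levels of Il6, Osm, Lif and Il10 as log2(RPKM + 1) on a linear axis, 1 point per retina, by group (naïve, 4 h, 18 h and 2 weeks after LPS), with circles for experiment 1, triangles for experiment 2 and bars at the median. Of the 6 points for Il6 at 4 h, 5 lie above every naïve point, and for Il10 the highest points at 4 h (148 and 88.7 RPKM) are both from experiment 2.

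Both receptor chains of IL-6 were lower at 4 h, when their ligand was higher. Il6ra (ENSMUSG00000027947, GRCm38 chr3:89864059-89913196, minus strand) encodes the chain that binds IL-6 itself. Naïve retinas had 3.35 to 18.8 RPKM of Il6ra with a median of 5.34 RPKM. At 4 h the values were 5.27, 1.00, 0.794, 2.41, 1.37 and 2.39 RPKM, and at 18 h they were 1.23, 1.27, 1.12, 2.10 and 1.495 RPKM.

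The lowest values of Il6ra at 4 h were those of replicates 2 and 3, which had the highest monocyte sums. Il6ra was below every naïve retina in 5 of 6 retinas at 4 h and in 5 of 5 at 18 h, where 1.3% of all tested genes were lower without overlap. At 2 weeks it ran from 3.28 to 12.1 RPKM with a median of 5.78 RPKM, and 1 of 7 retinas lay just below the naïve range. The log2 fold change of Il6ra was -1.29 at 4 h (SE 0.33, limma adjusted p = 0.0090), -1.56 at 18 h (SE 0.35, adjusted p = 0.0054) and -0.03 at 2 weeks (95% interval -0.67 to 0.61, adjusted p = 1). These are falls of 2.45-fold and 2.96-fold. Leaving out 4 h replicates 2 and 3 gave a 4 h change of -0.98 (limma adjusted p = 0.13), which was not called. From 18 h to 2 weeks Il6ra rose by 1.53 (SE 0.37, limma adjusted p = 0.018), a call lost without 18 h replicate 2 (1.51, adjusted p = 0.055) or replicate 3 (1.48, adjusted p = 0.058). Within experiments 1 and 2 the 4 h change was -1.44 and -1.10 (limma adjusted p = 0.27 and 0.0066) and the 18 h change -1.67 and -1.38 (adjusted p = 0.15 and 0.070). An antisense gene, Gm42809, overlaps 242 exon bases of Il6ra and was below 1 RPKM in every retina, and the library kit does not keep the strand.

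Il6st (ENSMUSG00000021756, GRCm38 chr13:112464070-112510086, plus strand) encodes gp130, the signalling chain shared by IL-6, oncostatin M and LIF. Its naïve levels were 5.23 to 27.2 RPKM with a median of 5.70 RPKM, and the highest was replicate 3, one of the retinas with few genes. At 4 h the values were 2.67, 2.23, 2.67, 3.57, 2.86 and 2.04 RPKM. At 18 h they were 1.93, 3.04, 3.41, 8.43 and 2.81 RPKM, and at 2 weeks 3.96 to 10.5 RPKM with a median of 6.09 RPKM.

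Every 4 h retina lay below every naïve retina in Il6st, where 1.42% of all tested genes were lower and 1.65% higher without overlap, and 4 of 5 retinas at 18 h did. The log2 fold change was -1.16 at 4 h (SE 0.33, limma adjusted p = 0.021), a 2.23-fold fall, and -0.85 at 18 h (SE 0.35, adjusted p = 0.18), and it was -0.10 at 2 weeks (95% interval -0.74 to 0.55, adjusted p = 1). Without naïve replicate 3 the 4 h change was -0.96 (limma adjusted p = 0.027) and under the fold threshold, and without 4 h replicate 6 it was -1.11 (adjusted p = 0.051). Without the 4 retinas with few genes it was -0.88 (limma adjusted p = 0.0070) at 4 h and -0.83 (adjusted p = 0.041) at 18 h. Leaving out 4 h replicates 2 and 3 gave a 4 h change of -1.12 (limma adjusted p = 0.090), which was not called. Within experiment 1 the 4 h change was -1.43 (limma adjusted p = 0.25) and within experiment 2 it was -0.78 (adjusted p = 0.068).

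Il10ra (ENSMUSG00000032089, GRCm38 chr9:45253837-45269149, minus strand), the ligand-binding chain for IL-10, was higher than naïve at 4 h and at its lowest at 18 h. Naïve retinas had 3.21 to 46.7 RPKM with a median of 11.5 RPKM. At 4 h the values were 80.2, 9.07, 19.2, 54.2, 35.8 and 71.7 RPKM. At 18 h they were 7.96, 5.10, 6.00, 0.982 and 5.79 RPKM.

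Il10ra lay above every naïve retina in 3 of 6 retinas at 4 h, and every 4 h retina lay above every 18 h retina. At 2 weeks it ran from 13.5 to 44.6 RPKM with a median of 16.2 RPKM, inside the naïve range and above every 18 h retina. The summed level of 8 rod photoreceptor markers also differed, with 230 to 5067 RPKM in naïve retinas (median 1635 RPKM), 180 to 1683 RPKM at 18 h (median 1161 RPKM) and 350 to 4950 RPKM at 2 weeks (median 2291 RPKM). At 4 h it was 3557, 372, 736, 2077, 3875 and 3535 RPKM, in the order of the Il10ra values above. The lowest rod sums at 4 h were in the retinas with the lowest Il10ra, the naïve retina with the highest Il10ra (replicate 1) had the highest naïve rod sum, and the 18 h retina with the lowest Il10ra (replicate 4) had the lowest of all. The part of rod RNA in the Il10ra result was not tested. The log2 fold change was 1.54 at 4 h (SE 0.46, limma adjusted p = 0.030), -1.19 at 18 h (SE 0.49, adjusted p = 0.18) and 0.72 at 2 weeks (SE 0.44, adjusted p = 1). Between 4 h and 18 h Il10ra fell by 2.73 (SE 0.54, limma adjusted p = 0.0014), where 2.79% of all tested genes were lower without overlap, and this call held without any 1 retina. From 18 h to 2 weeks it rose by 1.91 (SE 0.52, limma adjusted p = 0.040), where 2.09% of all tested genes were higher without overlap.

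The 4 h call of Il10ra depended on single retinas. It was lost without naïve replicate 6 (1.47) or without 4 h replicate 1 (1.31), 4 (1.42), 5 (1.54) or 6 (1.34), with limma adjusted p between 0.051 and 0.11. It was also lost with summed RPKM made equal over retinas (1.28, limma adjusted p = 0.085). Within experiment 1 the 4 h change of Il10ra was 1.19 (limma adjusted p = 0.55) and within experiment 2 it was 1.80 (adjusted p = 0.0083). The rise from 18 h to 2 weeks was lost without 18 h replicate 2 (1.95), 3 (2.00), 4 (1.54) or 5 (1.98) or 2-week replicate 3 (1.96), 4 (1.83), 5 (1.72) or 6 (1.91), with limma adjusted p between 0.055 and 0.14. Without the 4 retinas with few genes the 4 h change was 1.27 (limma adjusted p = 0.040), the fall from 4 h to 18 h was -2.36 (adjusted p = 0.0024) and the rise to 2 weeks was 1.63 (adjusted p = 0.063). Without 4 h replicates 2 and 3 the 4 h change was 2.22 (limma adjusted p = 0.0026). These retinas had the lowest Il10ra at 4 h, so a larger change was built in.

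Il10rb (ENSMUSG00000022969, GRCm38 chr16:91406164-91425834, plus strand), the accessory chain that IL-10 shares with IL-22 and the type III interferons, was expressed in all 28 retinas and was called at no time. Its level was 5.81 to 69.4 RPKM in naïve retinas (median 25.0 RPKM), 11.0 to 49.2 RPKM at 4 h (median 15.9 RPKM) and 11.4 to 64.4 RPKM at 2 weeks (median 46.5 RPKM). The 18 h values were 40.8, 26.6, 42.7, 18.1 and 22.5 RPKM, and all injected retinas lay inside the naïve range. Its 4 h log2 fold change was -0.20, with a 95% interval of -1.13 to 0.73. The 18 h change was 0.44 (interval -0.55 to 1.43) and the 2-week change 0.56 (interval -0.32 to 1.45), and each interval reaches past a 2-fold change in 1 direction. Il10rb shares 569 exon bases (14.9% of its own) with Gm21970 on the same strand, a gene at up to 15.1 RPKM, so that reads of the 2 genes may have been divided between them.

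**Figure D2:**
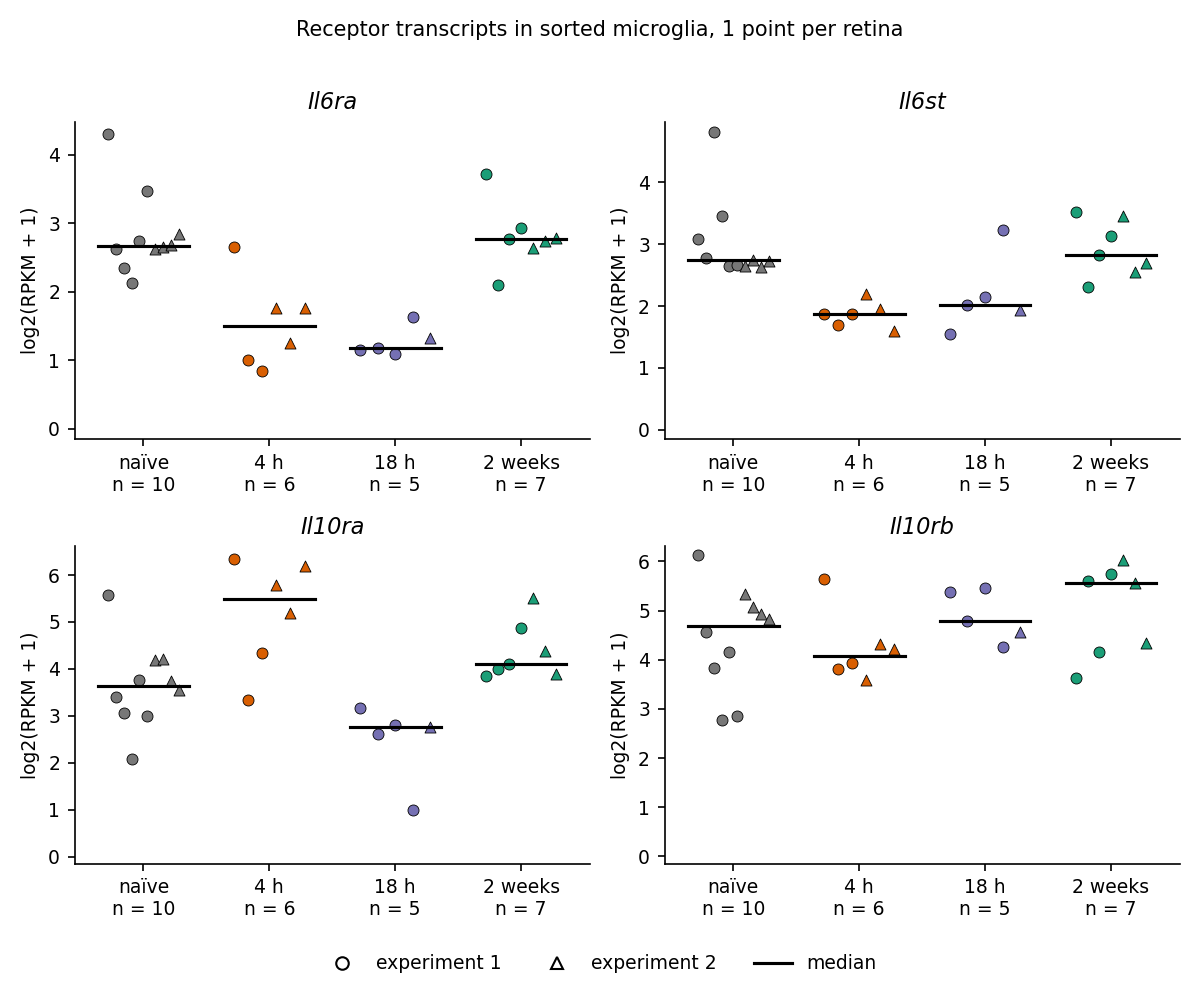
Levels of Il6ra, Il6st, Il10ra and Il10rb as log2(RPKM + 1) on a linear axis, 1 point per retina, by group, with circles for experiment 1, triangles for experiment 2 and bars at the median. Il6st at 4 h (2.04 to 3.57 RPKM) and Il6ra at 18 h (1.12 to 2.10 RPKM) lie below every naïve point, and Il10ra is above 9 RPKM in all 6 points at 4 h and below 8 RPKM in all 5 at 18 h.

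Across the members the receptor with the highest RPKM, which is scaled to transcript length, was Il10rb in naïve retinas (median 25.0 RPKM), followed by Il10ra (11.5 RPKM), Il6st (5.70 RPKM) and Il6ra (5.34 RPKM). At 4 h Il10ra had the highest median of the 4 receptors (45.0 RPKM) and the level of Il6 was about the same (median 45.5 RPKM). Between 4 h and 18 h 2 members were called, Il6 and Il10ra, both lower, where 5.42% of all tested genes were called (2.92% higher and 2.51% lower). From 18 h to 2 weeks 2 members were called, Il6ra and Il10ra, both higher, where 2.65% of all tested genes were called (1.1% higher and 1.55% lower). Each of these comparisons shares its retinas with another, so the member changes are set side by side and not counted as separate evidence. Fewer cells with a transcript and less of it per cell cannot be told apart in these pools.

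**Figure D3:**
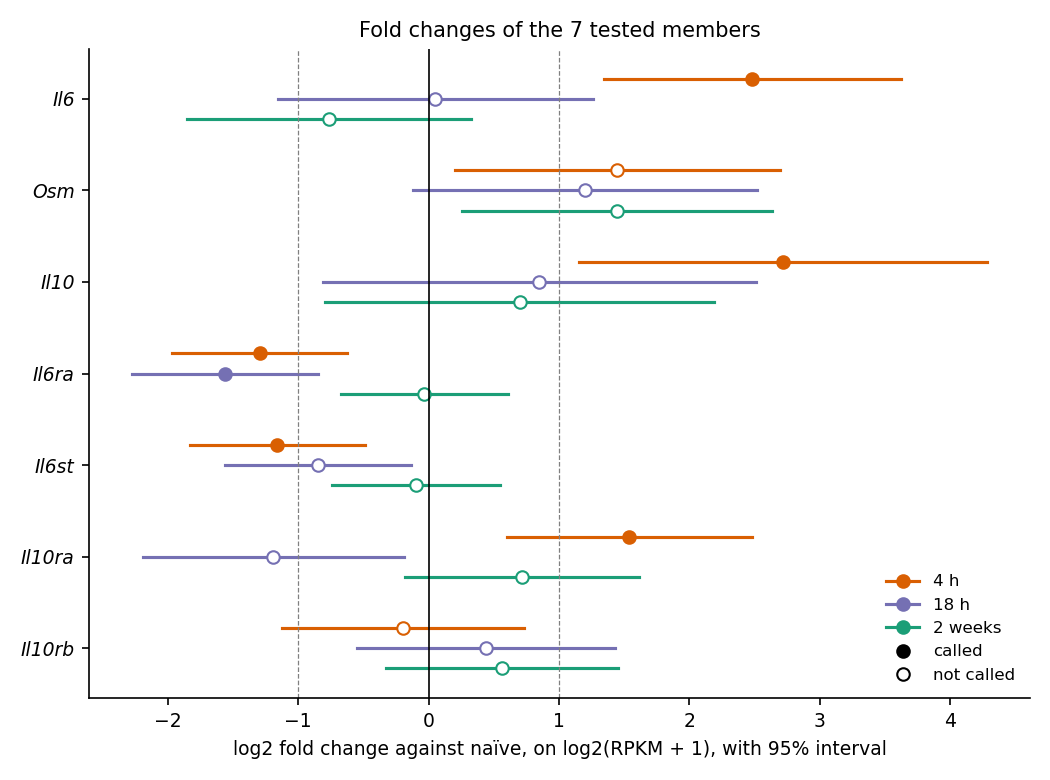
Log2 fold changes of the 7 tested members against naïve retinas on the log2(RPKM + 1) scale, with 95% intervals from limma, for each of the times after LPS (4 h in orange, 18 h in purple, 2 weeks in green). Filled points were called, dashed lines mark a 2-fold change, and at 4 h the filled points are Il6 (2.48), Il10 (2.72) and Il10ra (1.54) to the right and Il6ra (-1.29) and Il6st (-1.16) to the left.

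Genes whose values lay nearest to each member over the 28 retinas, by the root-mean-square difference of log2(RPKM + 1) after the naïve mean was subtracted, were looked up among all tested genes. Nearest to Il6 were Rel (1.04), Kdm6b (1.05) and Nr4a3 (1.06), with a median of 1.84 over all genes. Nearest to Il10 were Cxcl1 (1.17), Il1r2 (1.24) and Il23a (1.25), with a median of 2.18. Among the genes nearest to Il6ra were Pmepa1 (0.509) and Csf1r (0.515, the receptor of the growth factor that microglia need to survive), with a median of 1.29. Il6st lay nearest to Tmx4 (0.398), Pik3ca (0.443) and Efcab14 (0.452), with a median of 1.20. Il10ra lay nearest to Prkcd (0.674), Nlrp3 (0.714, an inflammasome sensor) and Slc39a4 (0.745), with a median of 1.43, and Il10rb to Txnrd2 (0.409), Haus8 (0.453) and Crat (0.457), with a median of 1.11. For Osm they were H2-K1 (0.999), Tsnax and Fen1 (both 1.07), with a median of 1.82. These are descriptions over samples that share the same groups and depths.

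The wider IL-6 and IL-10 pathways were read from a list of 59 other genes, of which 56 are in the table and 43 were tested. The list was chosen with earlier results of these data known. Its counts and those of its parts, set beside all tested genes, are descriptions and not tests. Some listed genes passed the filter only through injected retinas, which favours a call of higher. Examples are Timp1 (0 in every naïve retina), Tnip3 (at most 0.106 RPKM there) and Pim1 (at most 0.553 RPKM there). At 4 h 20 of the 43 were called higher and 2 lower, where 3.68% of all tested genes were higher and 4.39% lower, with a median log2 fold change of 1.17 against -0.11 for all tested genes. At 18 h 5 were higher and 1 lower, where 2.84% of all tested genes were higher and 1.85% lower, with a median of 0.43 against -0.08, and at 2 weeks limma called 0, where 2 genes (Ebi3 and Fgl2, both higher) had an unadjusted p under 0.05. Leaving out the 4 retinas with few genes gave 22 calls at 4 h, 6 at 18 h and none, 0, at 2 weeks, and leaving out 4 h replicates 2 and 3 gave 20, 6 and 0.

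Among 6 tested ligands of the IL-6 family 3 rose at 4 h, where 3.68% of all tested genes did. Il27 and Ebi3, which together encode the heterodimer IL-27, rose by 3.87 (SE 0.64, limma adjusted p = 7.7e-05) and 3.70 (SE 0.74, adjusted p = 0.00093). The Il27 level was 0 to 3.20 RPKM in naïve retinas and 2.90 to 113 RPKM at 4 h. Ebi3 was 0 to 52.2 RPKM in naïve retinas and 105 to 571 RPKM at 4 h, above every naïve retina, where 1.65% of all tested genes were higher without overlap. Ebi3 was still 3.33 higher at 18 h (limma adjusted p = 0.0090), and Ctf2, a cardiotrophin, rose by 1.39 at 4 h (adjusted p = 0.022). The Il27 change at 4 h differed between the experiments, by -4.96 in experiment 2 against experiment 1 (SE 0.98, limma adjusted p = 0.034). Lifr, the receptor chain that LIF and oncostatin M can use with gp130, fell by 1.83 at 4 h (SE 0.33, limma adjusted p = 0.00022) and by 1.57 at 18 h (SE 0.35, adjusted p = 0.0049), from 3.29 to 15.5 RPKM in naïve retinas to 0 to 2.23 RPKM at 4 h. Osmr, the dedicated receptor of oncostatin M, did not pass the filter and was at most 1.17 RPKM, at 4 h.

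Of the 6 kinases and signal transducers Jak2 rose at 4 h, by 2.24 (SE 0.52, limma adjusted p = 0.0037). Stat3 was 1.58 higher (SE 0.53) but did not pass (limma adjusted p = 0.061), and its levels overlapped, with 0.0471 to 16.6 RPKM in naïve retinas and 2.74 to 49.7 RPKM at 4 h. Jak1 and Tyk2, the kinases of the IL-10 receptor, had log2 fold changes of 0.72 and -0.52 at 4 h (limma adjusted p = 0.22 and 0.47).

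Of 8 inhibitors and genes of receptor shedding, 3 rose and 1 fell at 4 h, where 3.68% of all tested genes rose and 4.39% fell. Socs3, which binds gp130 and blocks its signal, was at a median of 0.237 RPKM in naïve retinas, where the highest was 15.8 RPKM. At 4 h it ran from 29.2 to 724 RPKM, above every naïve retina, where 1.65% of all tested genes were higher without overlap. At 18 h it ran from 0.884 to 12.9 RPKM. Its log2 fold change was 5.66 at 4 h (SE 0.59, limma adjusted p = 2.8e-08), and it fell by 4.56 from 4 h to 18 h (SE 0.70, adjusted p = 4.5e-05). Socs1 and Cish rose by 1.73 and 1.61 at 4 h (limma adjusted p = 0.013 and 0.0081). Adam10, a protease that can cut the IL-6 receptor from the membrane, fell by 1.44 (SE 0.28, limma adjusted p = 0.00060), from 19.0 to 82.8 RPKM in naïve retinas to 10.1 to 15.1 RPKM at 4 h, while Adam17, the other such protease, had a change of 0.22 (adjusted p = 0.74).

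Of 10 genes linked to STAT3, 6 rose at 4 h, against 3.68% of all tested genes. They were Junb (4.13), Bcl3 (3.79), Cebpb (2.94), Pim1 (2.29), Mcl1 (1.41, a survival factor) and Timp1, with limma adjusted p between 1.1e-08 and 0.034. Pim1 and Timp1 passed the filter only through injected retinas, so their rises are no support beside that share. Timp1, an inhibitor of metalloproteinases, was listed at 0 in every naïve retina, ran from 0 to 20.6 RPKM at 4 h and had 5.38 to 101 RPKM at 18 h (limma adjusted p = 1.8e-06 against naïve). Fgl2 was 2.07 higher than naïve at 18 h (SE 0.51, limma adjusted p = 0.013). Timp1 was 2.91 higher at 18 h than at 4 h (SE 0.64, limma adjusted p = 0.0043), where Mcl1, Pim1 and Bcl3 were lower.

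Of 10 genes that IL-10 induces in macrophages, 7 rose at 4 h, against 3.68% of all tested genes. They were Dusp1 (7.29), Il1rn (6.22), Tnip3 (4.37), Nfil3 (3.73), Zfp36 (3.61), Etv3 (2.48) and Sbno2 (1.56), with limma adjusted p between 2.2e-09 and 0.020. Several of these, such as Dusp1 and Zfp36, are also known as direct targets of LPS signalling. Tnip3 passed the filter only through injected retinas, so its rise is no support beside that share. Il1rn, which encodes the interleukin-1 receptor antagonist, had 6.47 to 338 RPKM at 4 h and 8.78 to 83.6 RPKM at 18 h against at most 1.22 RPKM in naïve retinas, and at 18 h its log2 fold change was 4.71 (SE 0.64, adjusted p = 9.9e-06). Hmox1 rose at 18 h, by 2.80 (SE 0.78, limma adjusted p = 0.029). The Tnip3 change at 4 h was 4.05 smaller in experiment 2 than in experiment 1 (SE 0.71, limma adjusted p = 0.012). The list is not specific to IL-10. Il10 itself was listed at 0 in 2 of the 4 h retinas, and the part of IL-10 in these rises was not tested.

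**Figure D4:**
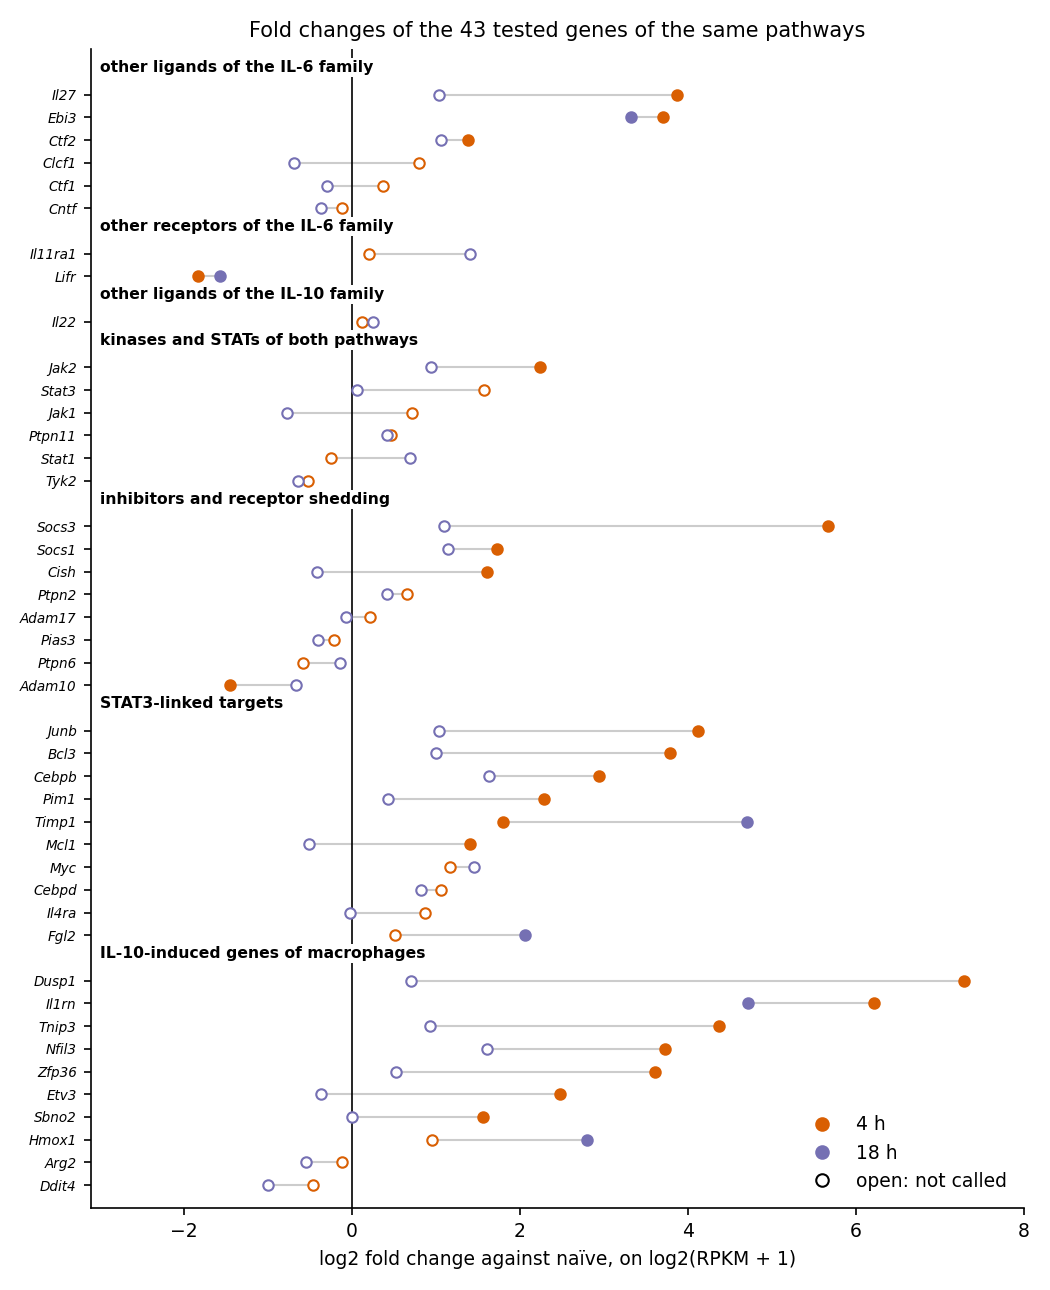
Log2 fold changes against naïve retinas at 4 h (orange) and 18 h (purple) of the 43 tested pathway genes, grouped by role and ordered by the 4 h value within a role, with filled points for called genes. At 4 h 20 genes are filled to the right of 0, led by Dusp1 (7.29), Il1rn (6.22) and Socs3 (5.66), and Lifr and Adam10 to the left, and at 18 h 5 are filled to the right, including Il1rn (4.71). Timp1 was listed at 0 in every naïve retina, so its plotted change depends on the 1 RPKM added before the logarithm.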

How the data were processed

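Single-retina microglia from 28 retinas were sequenced as single-end reads with an amplifying kit that does not keep the strand. Per the labels and the study's methods, the authors aligned reads to mm10 with STAR 2.5.3a, assigned them to Ensembl 89 transcripts by an expectation-maximisation method in Partek, and deposited RPKM per gene for each retina. Read counts were not analysed here, so the depth of 7510000 to 19700000 alignments per retina sets the precision only approximately, and read numbers were estimated from RPKM, alignments and the longest coding transcript.

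RPKM values were tested as log2(RPKM + 1) by limma 3.58.1 under R 4.3.3. A single fit held the 4 groups of all 28 retinas, the prior variance followed mean level, and p-values were adjusted by the Benjamini-Hochberg method over the 13164 genes at 1 RPKM or more in at least 5 retinas. The 4 h change was compared between experiments in a fit of group by experiment. The fit was tested on simulated data. Members, gene lists and tests were chosen with earlier results of these data known, and named genes are the members, the ligands and receptors and the called genes of the pathway list, and the 3 nearest genes of each member, of which 1 is not reported here. Stat3, Jak1, Tyk2 and Adam17 are outside this rule and were named after their values were seen. Alternatives were pseudocounts, filters, covariates, a replicate block, scalings, single experiments and leaving out retinas. Coordinates are from GENCODE M21, and promoters from RefSeq.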

Additional observations from a re-analysis of the deposited data

Results flagged for a closer look

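Of 30 member and group pairs with any spread, 6 held a retina far from the others by Dixon's 95% criterion on the log2 scale. The 6 were Il6 in naïve replicate 3 (0.0484 RPKM), Il6st in the same retina (27.2 RPKM), Il10 in naïve replicate 8 (0.604 RPKM), Lif in 4 h replicate 5 (3.73 RPKM), Il10rb in 4 h replicate 1 (49.2 RPKM) and Il10ra in 18 h replicate 4 (0.982 RPKM). The criterion assumes normal values, so no chance rate is set beside the 6. For Il10 the other 9 naïve retinas were listed at 0, so any value above 0 would be flagged. Naïve replicate 3 and 18 h replicate 4 are among the retinas with under 7500 genes at 1 RPKM.

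The change from 4 h to 18 h was itself tested, and it passed for 2 of 7 tested members and 12 of 43 tested pathway genes in limma. Of all tested genes 5.42% were called (2.92% higher and 2.51% lower). The log2 change was -2.43 for Il6 and -2.73 for Il10ra. Log2 changes of pathway genes were -6.58 for Dusp1, -4.56 for Socs3, -3.44 for Tnip3, -3.08 for Zfp36, -2.84 for Etv3, -2.83 for Il27, -2.79 for Bcl3, -2.03 for Cish, -1.92 for Mcl1, -1.86 for Pim1, -1.49 for Jak1 and 2.91 for Timp1.

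The 4 h change differed between the experiments for 2 of 43 tested pathway genes, Il27 (-4.96, experiment 2 minus experiment 1) and Tnip3 (-4.05), where 0.0988% of all tested genes were called. For Il10 the difference was 4.82 and was not called (limma adjusted p = 0.090).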

How the results depend on the processing

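Among 5 members called at 4 h, 3 were called with a pseudocount of 10 or with no filter, 2 with only the compared groups in the fit, 0 in experiment 1 alone, and 2 to 5 when 1 retina was left out, the lowest without 4 h replicate 6. The single call at 18 h was lost with a pseudocount of 10 and in either experiment alone, leaving 0, and stayed at 1 to 1 with any retina left out. From 4 h to 18 h there was 1 call with a pseudocount of 0.1 or no filter, 0 in experiment 1, and 1 to 2 with a retina left out. From 18 h to 2 weeks there were 0 calls with a pseudocount of 10 or in either experiment, 1 with no filter, quantile normalisation or without the 4 retinas with few genes (an alternative chosen after seeing the data), and 0 to 2 with a retina left out. The difference between experiments was called for 1 member with eye side as a covariate or quantile normalisation, and for 0 to 1 with a retina left out. Pathway calls at 4 h numbered 14 with a pseudocount of 10, 11 in experiment 1 and 18 to 23 with a retina left out. At 18 h they numbered 1 in experiment 2. The cause of these shifts was not tested, and single experiments hold fewer samples.

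Of 1772 single-gene values 56 changed sign, none of them called. For Il6 at 18 h against naïve the change was -0.0056 with a pseudocount of 10, -1.90 in experiment 2, -0.22 rescaled, -0.0029 under quantile normalisation, -0.68 without the retinas with few genes and -0.25 to 0.39 with 1 left out. From 18 h to 2 weeks Il6 was 0.66 in experiment 2. For Osm in experiment 2 at 18 h it was -0.38. From 4 h to 18 h Osm was 0.43 with a pseudocount of 0.1, 1.13 in experiment 1 and -0.71 to 0.19 with 1 left out, and from 18 h to 2 weeks -0.029 under quantile normalisation and -0.086 to 0.60. Il10 was 0.59 from 4 h to 18 h in experiment 1, and from 18 h to 2 weeks 0.025 with a pseudocount of 10, 0.034 in experiment 2 and -0.52 to 0.064. At 2 weeks Il6ra was 0.018 in experiment 2 and -0.19 to 0.13, and Il6st 0.21 in experiment 2, 0.084 without the retinas with few genes and -0.20 to 0.10. Il10rb was 0.42 at 4 h in experiment 1, -0.49 at 18 h in experiment 2, and from 18 h to 2 weeks -0.19 in experiment 1 and -0.045 to 0.35. The difference between experiments was -0.43 for Il6 with a pseudocount of 0.1, -0.22 with eye side, -0.067 rescaled and -0.74 to 0.68 with 1 left out, and -0.066 to 1.44 for Il10ra. Without 4 h replicates 2 and 3 (also chosen after seeing the data), which leaves 1 retina of experiment 1 at 4 h, assumed to vary like the other groups, it was -0.31 for Il6, -0.88 for Osm, -0.82 for Il6ra and -1.07 for Il10ra.

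Replicate numbers are not said to pair the retinas, and the correlations do not settle whether they do. Of 34 same-number pairs 15 had a correlation over 0.1 (median 0.035, highest 0.698), and the median of other pairs was 0.0054. Among 25 retinas 7 correlated best with their own number, and the rate to be seen without pairing was not computed. With a replicate block 4 members were called at 4 h, 1 at 18 h, 0 at 2 weeks, 2 from 4 h to 18 h and 1 from 18 h to 2 weeks, and 17 pathway genes at 4 h. Under the block Il10rb was 0.055 at 4 h, and the difference between experiments was -0.54 for Osm and -0.28 for Il10ra. RPKM without counts leaves values near 0 imprecise.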
